A study of Rattus norvegicus with 4 samples.

Results

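The 11 genes described here encode sodium/proton exchangers of the SLC9 family and anion exchangers of the SLC26A family in rat choroid plexus and kidney proximal tubule. Their names begin with SLC9 or SLC26A in the study's lists of coupled transporters and ATP-driven pumps, which together name 263 of the 32883 gene IDs measured. They are 4 SLC9 and 7 SLC26A genes. Every gene in these lists stood at or above 0.5 TPM in the library its list was made for, so the presence of 10 of the 11 genes in the male choroid plexus and FACS lists, and of 2 in the proximal tubule list, follows from how they were chosen. Other genes of these families were not analysed here.

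RNA was sequenced from 4 libraries, each a pool of 9-week-old Sprague Dawley rats with no genetic change and no drug treatment named beyond the anaesthesia given before tissue collection. Whole choroid plexus came from 5 male rats in one library and 5 female rats in another. The library called FACS epithelial cells came from the choroid plexus of 10 male rats, which was digested with collagenase and sorted with an antibody against NKCC1, the sodium, potassium and chloride cotransporter of these cells. The proximal tubule library came from the kidneys of 5 male rats, digested with collagenase and pronase, from which tubules were picked by hand. By the study's methods the kidneys were taken from the male rats, so this pool and the male choroid plexus pool may share animals. With 1 library per condition, no difference has a replicate check, no p-value is given, and pool, sex, digestion, sorting and library cannot be told apart. Each TPM below, an abundance per transcript length scaled to the same total in every library, is followed where shown by its 95% exact Poisson interval, which covers counting error only.

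SLC9 proteins, also called NHEs, exchange sodium for protons and so set the pH and volume of cells and of the compartments inside them. NHE3 takes up sodium at the luminal membrane of the renal proximal tubule, and NHE7 and NHE9 act in the trans-Golgi network and in endosomes. SLC26A proteins carry anions such as sulphate, chloride, bicarbonate, oxalate and iodide, most of them in exchange for another anion. The choroid plexus epithelium secretes cerebrospinal fluid, for which it moves sodium, chloride and bicarbonate from blood to ventricle.

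Stretches of reference sequence are shown for the genes with the plainest differences between libraries: SLC9A3 was the member named by the proximal tubule list alone, while SLC9A9 and SLC26A2 were those past 2-fold in opposite directions in the FACS library. Each runs 5′ to 3′ from 250 bases before to 50 bases after the gene's start in RefSeq (GRCr8), a different build from the one the reads were aligned to, and lies at chr1:30995953-30996252 (minus strand) for SLC9A3, at chr8:104112285-104112584 (plus strand) for SLC9A9 and at chr18:56936963-56937262 (minus strand) for SLC26A2. Capitals mark 3 motifs, each searched on both strands: the GC box with the letters GGGCGG, the box that is named after its letters CCAAT, and the TATA box, searched here as TATAAA.
SLC9A3: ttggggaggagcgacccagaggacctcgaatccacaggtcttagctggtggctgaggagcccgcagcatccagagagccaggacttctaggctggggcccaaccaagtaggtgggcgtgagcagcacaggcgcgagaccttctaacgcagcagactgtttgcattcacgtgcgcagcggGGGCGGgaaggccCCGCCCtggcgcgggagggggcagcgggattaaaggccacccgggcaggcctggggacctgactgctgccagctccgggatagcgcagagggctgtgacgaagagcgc
SLC9A9: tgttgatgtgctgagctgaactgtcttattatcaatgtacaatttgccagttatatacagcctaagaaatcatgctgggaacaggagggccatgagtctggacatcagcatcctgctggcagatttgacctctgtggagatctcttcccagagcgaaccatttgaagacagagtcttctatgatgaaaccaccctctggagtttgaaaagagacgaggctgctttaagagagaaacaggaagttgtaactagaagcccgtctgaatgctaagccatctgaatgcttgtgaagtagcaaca
SLC26A2: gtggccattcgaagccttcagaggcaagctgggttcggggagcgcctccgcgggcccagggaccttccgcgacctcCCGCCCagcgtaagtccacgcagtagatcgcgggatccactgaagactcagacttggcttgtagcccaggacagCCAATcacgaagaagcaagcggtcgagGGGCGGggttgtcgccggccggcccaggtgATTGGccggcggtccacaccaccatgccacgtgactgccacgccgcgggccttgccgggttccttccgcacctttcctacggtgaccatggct
The SLC9A3 window held 2 GC boxes at 66.7% G and C, and the SLC26A2 window held 2 GC boxes and 2 CCAAT boxes at 66.3%. The SLC9A9 window held none of the 3 motifs and was 44.7% G and C. Of all 33469 RefSeq promoter windows of this length, 33.1% held GGGCGG, 37.5% CCAAT and 14.2% TATAAA, and the median window was 51.7% G and C. No match overlapped another, and a match is a run of letters, not a bound site. Windows were found for 8 of the 11 genes, the other entries being SLC26A6, SLC26A7 and SLC26A11.

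Expected counts, RSEM's estimates of reads per gene, summed to between 23873318 and 28324976 per library. Mitochondrially encoded genes took 4.32 to 5.34% of them in the choroid plexus and FACS libraries and 70.7% in the proximal tubule library, which left 7352952 counts there. TPM values of the proximal tubule are therefore given with these mitochondrially encoded genes removed and the rest rescaled. TTR, the thyroxine carrier that marks the choroid plexus epithelium, made up 23.9% of all TPM in the male, 28.6% in the female and 39.0% in the FACS library, and all 11 epithelial markers were at or above 0.5 TPM in these 3 libraries. All 7 immune markers were past 2-fold higher in the FACS than in the male library, and their summed level was 843 TPM in the male, 549 in the female and 4620 in the FACS library, with none at 0. All 7 proximal tubule markers were detected in the proximal tubule library, as were all 7 markers of the distal nephron and collecting duct, at summed levels of 8048 and 124.6 TPM. Marker genes could be named only through the study's lists, so their detection follows in part from those lists. Of the genes that reached 0.5 TPM in whole male tissue, 58.3% were listed at 0 there, against 2.27% in the FACS and 0.794% in the female library, and those listed at 0 included ATP6V0B, a subunit of the proton pump that nearly all cells use. A gene at 0 in the proximal tubule library is therefore only said to be listed at 0.

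The 2 exchangers of internal compartments, SLC9A7 and SLC9A9, moved in opposite directions in the FACS library. SLC9A7 (NHE7, ENSRNOG00000004150), an exchanger of the trans-Golgi network, had 2.17 TPM (1.80 to 2.59) in the male, 1.51 TPM (1.203 to 1.87) in the female and 0.52 TPM (0.353 to 0.738) in the FACS library, from 122, 83 and 31 expected counts. SLC9A9 (NHE9, ENSRNOG00000008554), an exchanger of late endosomes, had 1.59 TPM (1.32 to 1.89), 1.60 TPM (1.33 to 1.91) and 4.89 TPM (4.43 to 5.39) in the same order, with 406 counts in the FACS library. The FACS library was thus the lowest of the 3 for SLC9A7 and the highest for SLC9A9, and its interval overlapped neither whole-tissue interval for either gene. Leaving intervals aside, 71.8% of all genes lay below both whole-tissue libraries in the FACS library and 19.9% above both. Relative to the median log2 ratio of all genes against the male library, SLC9A7 stood at -0.48 and SLC9A9 at 1.77. On that scale SLC9A9 was past 2-fold and SLC9A7 was not. Both were listed at 0 in the proximal tubule. Among the listed transporters and pumps SLC9A7 ranked 172nd in the male, 179th in the female and 211th in the FACS library, and SLC9A9 ranked 181st, 175th and 139th.

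SLC9A5 (NHE5, ENSRNOG00000028844), known chiefly from neurons, lay near the cut-off, at 0.75 TPM (0.586 to 0.946) in the male, 0.99 TPM (0.798 to 1.21) in the female and 0.78 TPM (0.617 to 0.973) in the FACS library, and was listed at 0 in the proximal tubule. These 3 intervals overlapped. SLC9A3 (NHE3, ENSRNOG00000015159) had 1 expected count in the male library (0.01 TPM), 5 in the female (0.04 TPM) and 0 in the FACS library. In the proximal tubule it had 191 counts and 3.73 TPM (3.22 to 4.30).

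**Figure D1:**
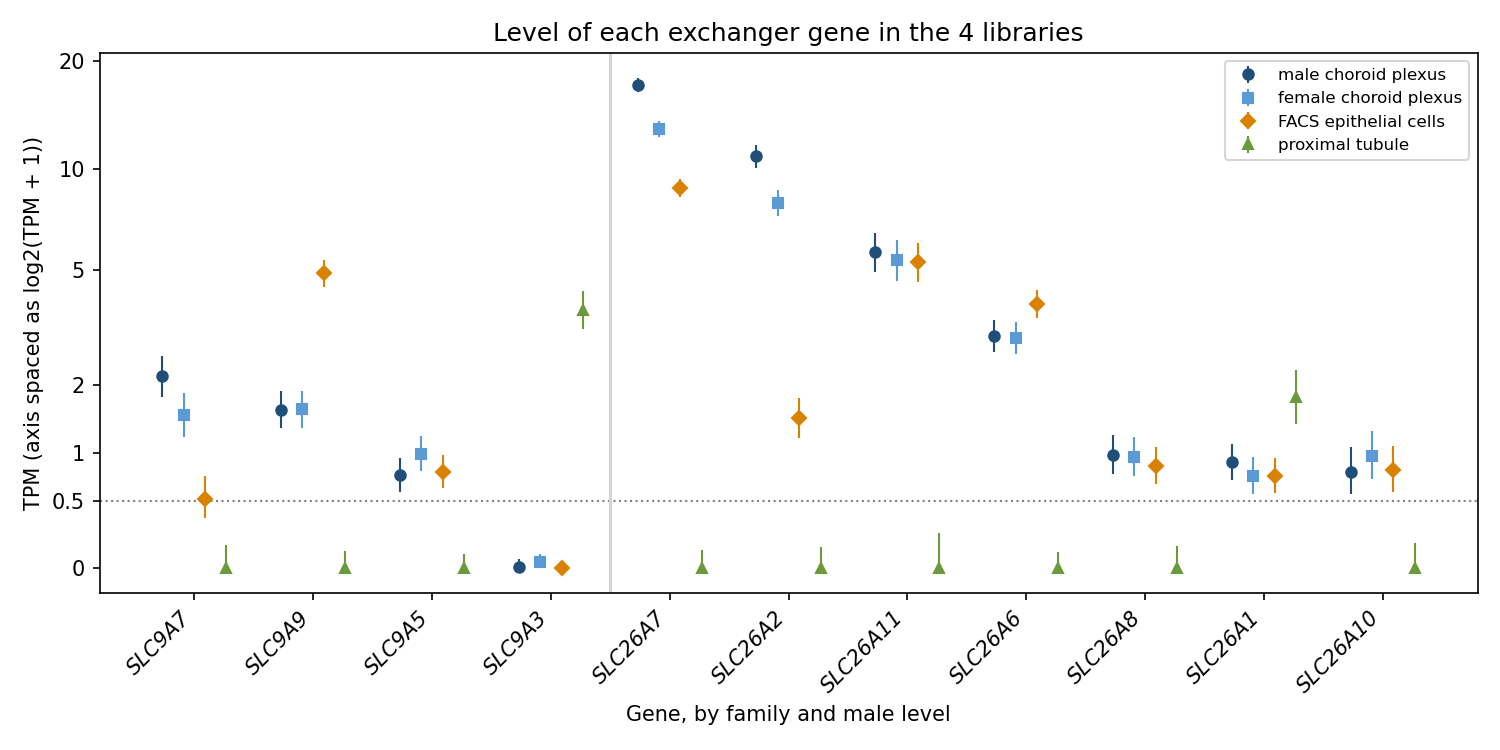
Level in TPM (axis spaced as log2 of TPM + 1) of each gene in the 4 libraries, with points for the level, bars for the 95% exact Poisson interval and a dotted line at 0.5 TPM. SLC26A7 has the highest level in the 3 choroid plexus libraries. Of the 10 genes tested there, 5 lie lower in the FACS library than in both others, SLC26A2 and SLC9A7 among them, against 71.8% of all genes. SLC9A9 and SLC26A6 (2 of 10) lie higher than both, against 19.9%. Only SLC9A3 and SLC26A1 stand above 0 in the proximal tubule.

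Among the SLC26A genes, SLC26A7 (ENSRNOG00000006096), an anion transporter known from kidney, stomach and thyroid, led in the 3 choroid plexus libraries. It had 17.2 TPM (16.4 to 18.1) in the male, 13 TPM (12.3 to 13.7) in the female and 8.83 TPM (8.31 to 9.38) in the FACS library, from 1742, 1302 and 1069 counts. No 2 of these intervals overlapped. It held 43.6%, 40.7% and 40.4% of the summed SLC26A level.

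SLC26A2 (ENSRNOG00000018082), the sulphate transporter whose loss causes diastrophic dysplasia, was the next in whole tissue. The male library had 10.9 TPM (10.1 to 11.7), the female 7.96 TPM (7.28 to 8.69) and the FACS library 1.47 TPM (1.19 to 1.79), from 695, 499 and 99 counts. The FACS level was far below both whole-tissue levels, and SLC26A2 fell from the second to the fourth place among the 7 SLC26A genes. It was listed at 0 in the proximal tubule.

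Levels of SLC26A11 and SLC26A6 varied less. SLC26A11 (ENSRNOG00000030537), a sodium-independent sulphate transporter, had 5.69 TPM (4.95 to 6.51) in the male, 5.36 TPM (4.63 to 6.17) in the female and 5.28 TPM (4.58 to 6.05) in the FACS library, with overlapping intervals. SLC26A6 (ENSRNOG00000020450), an exchanger of chloride with oxalate, bicarbonate and other anions, had 3.04 TPM (2.67 to 3.44), 2.99 TPM (2.62 to 3.39) and 3.89 TPM (3.49 to 4.33). Its FACS interval lay just above those of both whole-tissue libraries. Each was listed at 0 in the proximal tubule.

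The remaining 3 SLC26A genes lay at or under 0.98 TPM in the choroid plexus. SLC26A8 (ENSRNOG00000000512), the testis anion transporter, had 0.98 TPM in the male, 0.95 in the female and 0.85 in the FACS library, from 72, 69 and 69 counts. SLC26A10 (ENSRNOG00000029465), of no established function, had 0.79, 0.97 and 0.81 TPM from 40, 48 and 43 counts. SLC26A1 (SAT-1, ENSRNOG00000000041), the sulphate and oxalate exchanger of the basolateral membrane in the proximal tubule, had 0.89 TPM (0.700 to 1.12), 0.74 TPM (0.566 to 0.951) and 0.74 TPM (0.572 to 0.941). It had 1.79 TPM (1.38 to 2.29) in the proximal tubule, from 65 counts, while SLC26A8 and SLC26A10 were listed at 0 there. For all 3 genes the choroid plexus intervals overlapped.

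Summed over the 7 genes, SLC26A held 39.5 TPM in the male, 32.0 in the female, 21.9 in the FACS and 1.79 in the proximal tubule library. SLC26A7 and SLC26A2 made up most of the whole-tissue sum, and SLC26A7 and SLC26A11 most of that of the FACS library.

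**Figure D2:**
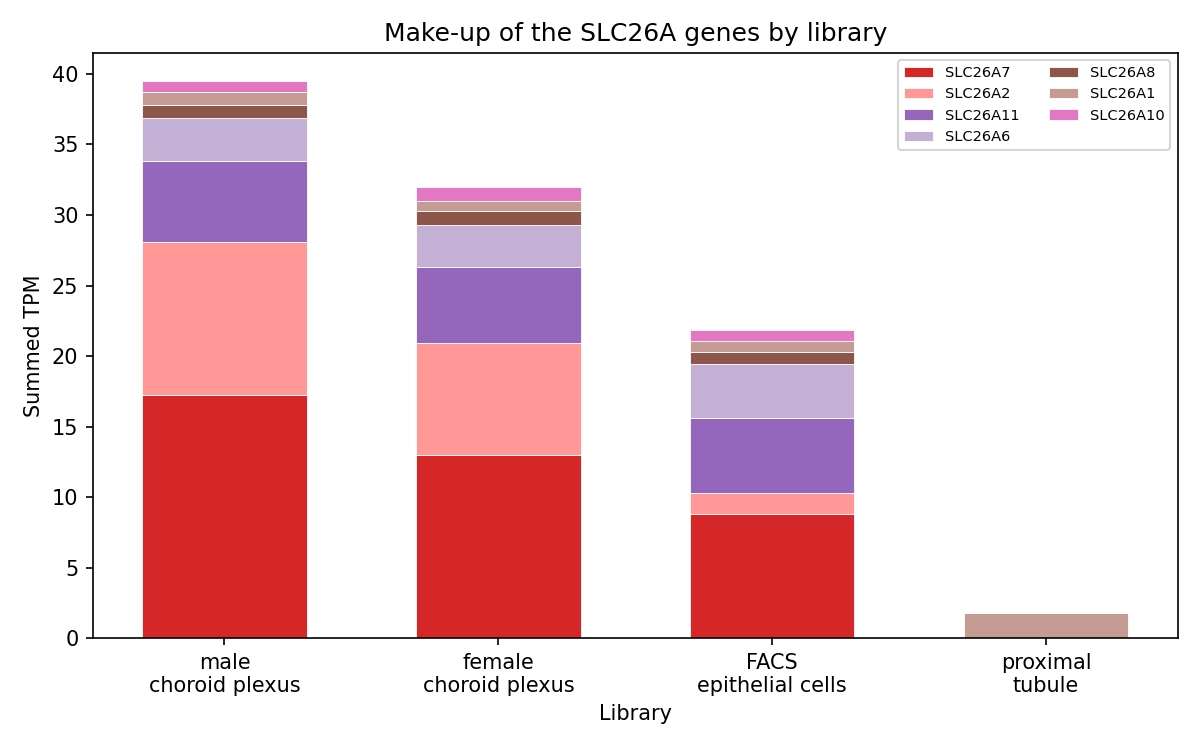
Summed TPM of the 7 SLC26A genes in each library, stacked by gene. The bar is tallest in the male library (39.5 TPM) and lower in the FACS library (21.9 TPM), where the SLC26A2 part is thin, and the proximal tubule bar (1.79 TPM) holds SLC26A1 alone.

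Ordered by level among the genes described, the first 4 in the male library were SLC26A7, SLC26A2, SLC26A11 and SLC26A6, and none of these neighbours had overlapping intervals. Further down, SLC9A7 and SLC9A9 overlapped, as did the neighbours in the run SLC26A8, SLC26A1, SLC26A10 and SLC9A5. The female library had the same first 4 places, none of them overlapping, and all neighbours overlapped in the run SLC9A9, SLC9A7, SLC9A5, SLC26A10, SLC26A8 and SLC26A1. In the FACS library SLC26A11 and SLC9A9 overlapped at places 2 and 3, and so did the last 5 genes detected, SLC26A8, SLC26A10, SLC9A5, SLC26A1 and SLC9A7.

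To compare the sexes, the log2 ratio of TPM + 1 in the female over the male library was taken relative to the median of all 13869 genes at or above 0.5 TPM in either, which was -0.16. None of the 10 exchanger genes tested was past 2-fold (0 of 10), against 1.38% of all genes tested, and their relative log2 ratios ran from -0.25 for SLC26A2 to 0.34 for SLC9A5. Before that median was subtracted, 3 of the 10 genes had a female to male ratio with its interval below 1, against 47.7% of all genes tested. The female to male ratio of TPM was 0.696 (0.520 to 0.927) for SLC9A7, 0.731 (0.650 to 0.821) for SLC26A2 and 0.754 (0.702 to 0.811) for SLC26A7. The highest ratio among the 10 was that of SLC9A5, at 1.32 (0.958 to 1.83), and these intervals hold no spread between rats.

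To compare sorted cells with whole tissue of the same sex, the FACS library was set against the male library in the same way, with a median over 14024 genes of -0.58. Of the 10 exchanger genes tested, 1 was past 2-fold higher, SLC9A9, and 1 past 2-fold lower, SLC26A2. Of all genes tested, 10.9% were past 2-fold higher and 6.03% lower, 16.9% in all, so 2 of 10 was near the background. The exchanger genes' median relative log2 ratio was 0.49 and 7 of 10 lay above the median of all genes. In bulk RNA, fewer cells of a type and less RNA per cell cannot be told apart.

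SLC9A9 had 3.08 times the male TPM in the FACS library (2.51 to 3.79) and a relative log2 ratio of 1.77, higher than 96.5% of all genes tested. Against the female library the ratio was 3.06 (2.49 to 3.77). The immune markers moved the same way, with 7 of 7 past 2-fold higher and a median relative log2 ratio of 2.63, of which CSF1R, the macrophage growth factor receptor, had 16.5 TPM in the male, 10.7 in the female and 79.1 in the sorted cells. Among the endothelial markers 1 of 4 and among the mesenchymal markers 1 of 3 was past 2-fold higher, against 10.9% of all genes tested. Summed levels in the male, female and FACS libraries were 65.9, 53.9 and 76.1 TPM for the endothelial markers. For the mesenchymal markers they were 205, 165 and 311.5 TPM, but these markers differed. DCN had 101.5 TPM in the male, 81.3 in the female and 239 in the FACS library. PDGFRA went the other way, with 83.4, 66.3 and 49.25 TPM, and PDGFRB had 20.4, 17.4 and 23.1 TPM. None of these markers was at 0 in the 3 libraries. Their part in the level of SLC9A9 was not tested.

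SLC26A2 moved the other way, with 7.41 times more TPM in the male than in the FACS library (5.994 to 9.24) and 5.41 times more in the female (4.36 to 6.79). Its relative log2 ratio of -1.69 was among the lowest 1.29% of genes tested. SLC9A7 had 4.17 times more TPM in the male than in the FACS library (2.79 to 6.41), but on the scale of TPM + 1 its relative log2 ratio was -0.48, and with a pseudocount of 0.1 in place of 1 it was -1.18 and past 2-fold. HBB, the globin marker of red blood cells, had 1225 TPM in the male, 678 in the female and 275 in the sorted cells. Its relative log2 ratio was -1.57 against the male library. Against the female library it was -0.84, not past 2-fold, where SLC26A2 was at -1.40. Among the 11 epithelial markers 0 were past 2-fold lower and 1, TTR, was past 2-fold higher. Their relative log2 ratios had a median of -0.04 and ran from -0.90 for SLC4A5 to 1.29 for TTR. TTR, FOLR1, AQP1 and HTR2C lay above the median of all genes, and the other epithelial markers lay below it. Neither the part of blood cells nor that of epithelial cells in the level of SLC26A2 was tested.

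Without the median subtracted, 5 of 10 genes lay lower in the FACS library than in both whole-tissue libraries, against 71.8% of all genes, and SLC9A9 and SLC26A6 lay higher than both (2 of 10), against 19.9%. The FACS to male ratio of TPM was 0.928 (0.762 to 1.13) for SLC26A11, while SLC26A6 stood at 1.28 (1.08 to 1.51). Relative to the median of all genes SLC26A11 was at 0.49 on the log2 scale, so its sign turned with the scaling, as it did for SLC26A1 and SLC26A8. Under every scaling tried against the male library, SLC9A9, SLC26A6, SLC9A5 and SLC26A10 stayed above 0 and SLC26A2, SLC9A7 and SLC26A7 below 0. With no subtraction SLC9A5 and SLC26A10 stood at only 0.02 against the male library. Against the female library they were then below 0, at -0.16 and -0.12.

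**Figure D3:**
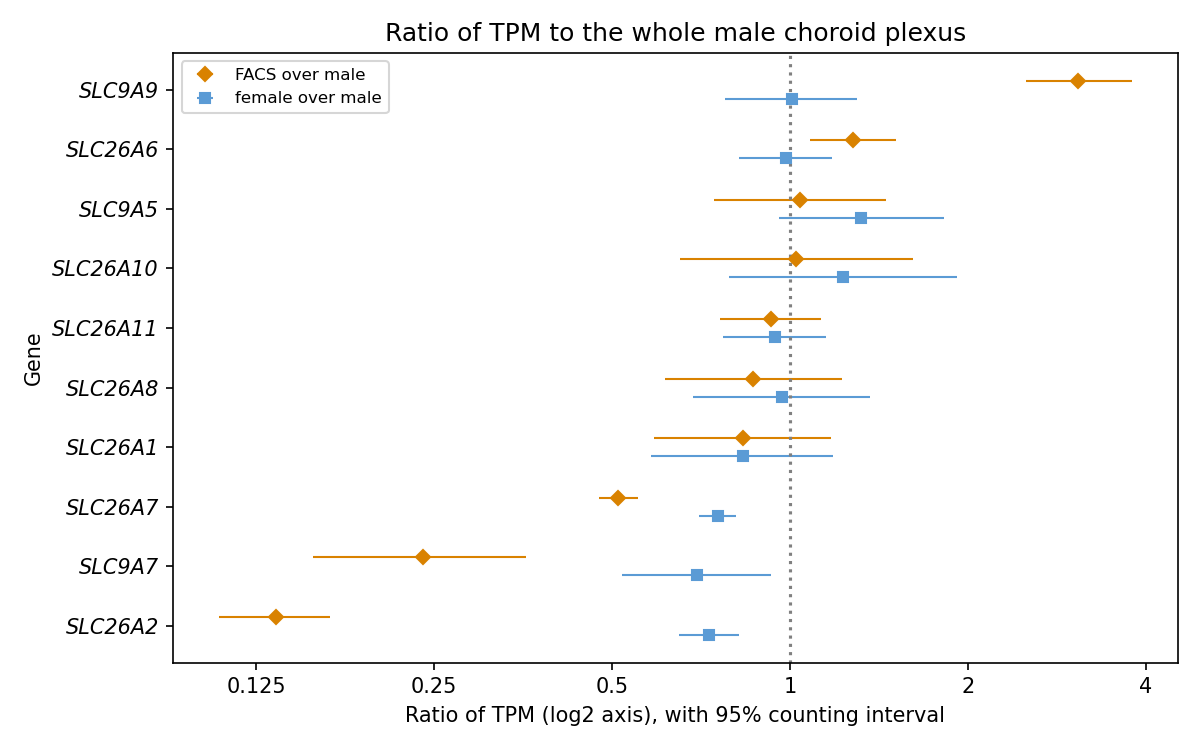
Ratio of TPM in the FACS and female libraries to the male library for the 10 genes tested (log2 axis), with bars for the 95% exact counting interval and no subtraction of the median of all genes. SLC9A9 lies at 3.08 in the FACS library and 1.01 in the female library, and SLC26A2 has the lowest FACS ratio, at 0.135.

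**Figure D4:**
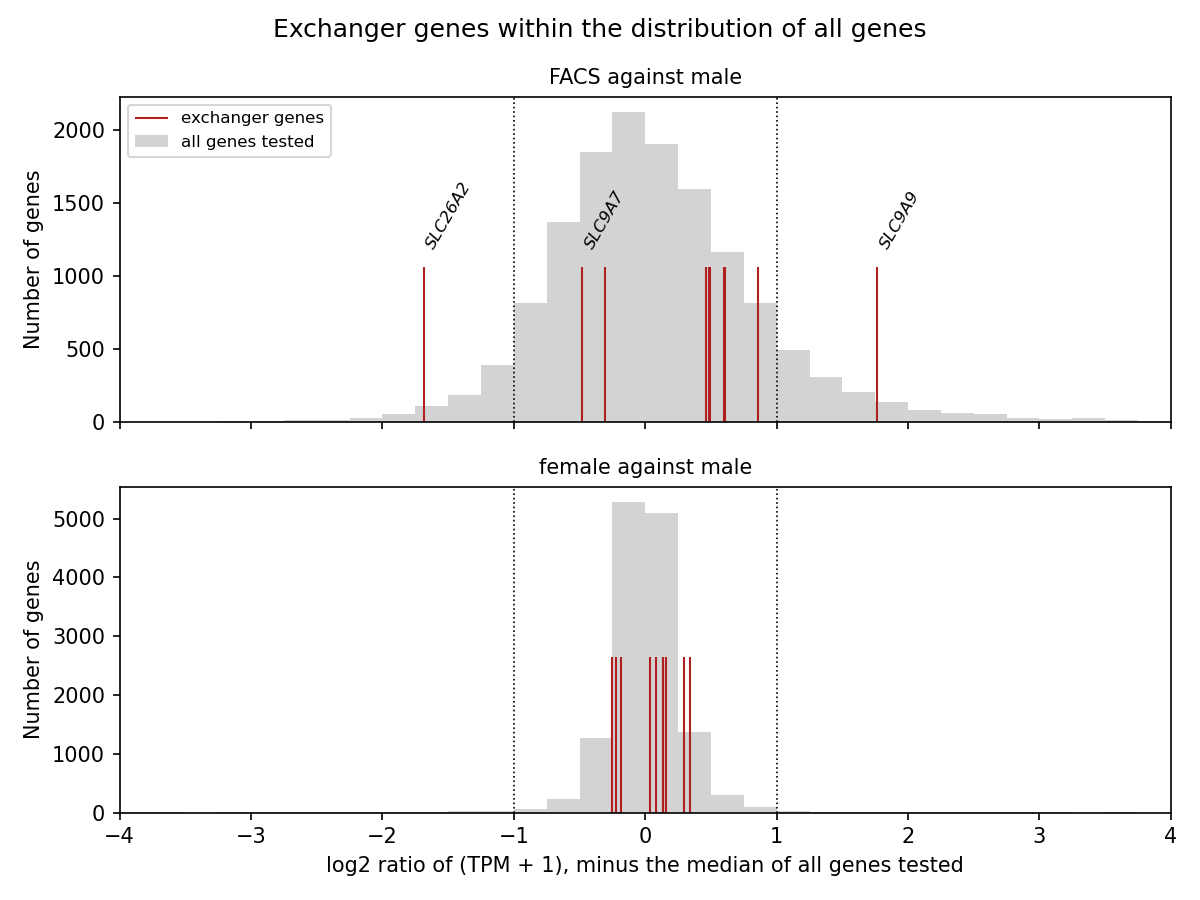
Number of genes by log2 ratio of TPM + 1, relative to the median of all genes tested, for FACS against male (upper panel) and female against male (lower panel), with red lines for the 10 exchanger genes and dotted lines at 2-fold. SLC9A9 and SLC26A2 lie outside the dotted lines in the upper panel, and no exchanger gene does in the lower.

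The TPM of SLC26A7 in the FACS library also depends on its estimated length. RSEM's effective length is a mean over a gene's transcripts weighted by their estimated abundance, and between the male and FACS libraries it shortened by the same 17.05 bases for 71.1% of 14024 genes (within 0.05 bases), including 8 of the 11 genes here. SLC26A7 instead went from 4127 bases in the male and 4158 in the female to 4647 bases in the FACS library, 537 bases beyond that common offset. Its male to FACS ratio of TPM was 1.95 (1.81 to 2.11). With the FACS length set to the male length less the common offset it was 1.73, so that the length made a factor of 1.13. Relative to the median of all genes, which was -0.58, the log2 ratio of SLC26A7 in the FACS over the male library was -0.31. Against the female library it was -0.05. SLC26A8 went from 3010 and 3026 to 3115 bases, with 72 and 69 counts in whole tissue and 69 in the FACS library, and SLC26A10 decreased by 13.79 bases beyond the offset in both the female and FACS libraries.

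To compare the choroid plexus with another fluid-moving epithelium, the proximal tubule library was set against the male library, with mitochondrially encoded genes removed from both. Of the 11 exchanger genes, SLC9A3 and SLC26A1 were at or above 0.5 TPM in the proximal tubule and 9 were listed at 0. Each of the 9 came from the choroid plexus lists alone, and the count stands against 58.3% listed at 0 among all genes that reached 0.5 TPM in the male library. At their male share of non-mitochondrial counts, the library would have held 478 counts of SLC26A7, 190.6 of SLC26A2 and 11.0 of SLC26A10. Whether these zeros reflect the tubules or the library was not tested.

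SLC9A3 had 409 times the male TPM in the proximal tubule (72.6 to 16257, from 191 counts against 1). It was named by the proximal tubule list alone, so the direction of this difference follows from how it was chosen. Against the FACS library, where it had no count, it was at least 148-fold higher with a floor of 3 counts in that library. It ranked 67th among the listed transporters and pumps. SLC26A1 had 1.85 times the male TPM (1.304 to 2.61) and ranked 87th, and with mitochondrially encoded genes kept its deposited TPM was 0.50 in the proximal tubule against 0.89 in the male library, so the direction of its TPM rested on their removal. Relative to the median of all genes it was higher with them removed and with them kept, at 2.77 and 2.37 on the log2 scale. In RefSeq's gene table (GRCr8) SLC26A1 lies wholly within Idua, a lysosomal enzyme gene. With strand not given for the counting, the reads of SLC26A1 may include some of Idua, which was not tested. SLC26A6, SLC26A10 and SLC26A11 also share bases with a protein-coding neighbour in that gene table, and 4 of the 11 genes overlap no other gene.

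Relative to the median of all 14227 genes tested, which was -2.27, 5 exchanger genes were past 2-fold higher and 2 lower, against 33.7% and 34.7% of all genes, 68.5% in all. That split turned with the scaling, since the 5 included SLC9A5, SLC26A8 and SLC26A10, which were listed at 0 in the proximal tubule. With no subtraction 1 gene, SLC9A3, was higher and 7 of the 11 were lower, against 83.1% of all genes past 2-fold in either direction.

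Genes that work beside these exchangers were read as 5 partner lists, in which some genes could be named only because they are among the highest of the male library. Of 6 partners of NHE proteins, 0 were past 2-fold in either direction between the FACS and male libraries, against 16.9% of all genes tested. SLC9A3R1 (NHERF1), the scaffold that ties NHE3 to the cytoskeleton, had 127 TPM in the male, 129 in the female, 51.5 in the FACS and 4.45 in the proximal tubule library, and ezrin (EZR), the linker to actin, had 667, 630, 308 and 17.7 TPM. The scaffold was thus abundant in choroid plexus libraries that held at most 5 counts of SLC9A3. In the proximal tubule 1 of the 6 partners was past 2-fold higher and 4 were lower on the relative scale, against 33.7% and 34.7% of all genes tested, so that most genes of any kind were past the limit there.

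Of the carbonic anhydrases, which supply protons and bicarbonate, 2 of 4 were past 2-fold lower in the FACS than in the male library, against 6.03% of all genes tested. CAR2 had 1533 TPM in the male, 1455 in the female, 405 in the FACS and 1765 in the proximal tubule library. The last value alone is with mitochondrially encoded genes removed, so it is not on the scale of the others. CA13 had 100.4, 76.3, 13.9 and 0.0717 TPM. Of the other 2, CA12 was lower in the FACS library but not past 2-fold. CA14 went the other way, with 296 TPM in the male, 279 in the female and 320 in the FACS library. Among the SLC4 bicarbonate transporters 2 of 9 were past 2-fold lower in the FACS than in the male library, against 6.03% of all genes tested. They were SLC4A7 at -1.80 on the relative log2 scale and SLC4A10 (NCBE) at -1.001, just past the limit. SLC4A5 (NBCe2) had 881 TPM in the male, 713 in the female and 314 in the FACS library and was not past 2-fold, and SLC4A2 (AE2) had 638, 592 and 642 TPM, each being listed at 0 in the proximal tubule. Both stood far above SLC26A7, the highest of the exchangers described here.

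Sulphate has other carriers in these tissues. SLC13A4, a sodium-coupled sulphate transporter, had 627 TPM in the male, 494 in the female and 445 in the FACS library and was listed at 0 in the proximal tubule, so it stood far above SLC26A2 and SLC26A11. SLC13A1, the renal sodium-coupled sulphate transporter, had 385 TPM in the proximal tubule and no count in the other 3 libraries. Of the 2 sulphate and chloride partners tested between the FACS and male libraries, 0 were past 2-fold, against 16.9% of all genes tested. CFTR, the chloride channel that works with SLC26A exchangers in other epithelia, had 0, 0 and 2 counts in the male, female and FACS libraries. In the proximal tubule it had 3.98 TPM.

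The vacuolar proton pump acidifies the compartments in which NHE7 and NHE9 work. All 15 of its genes read here were detected in the choroid plexus and FACS libraries, which follows in part from naming genes through the study's lists. Their summed levels were 3321 TPM in the male, 3204 in the female and 2468 in the FACS library. In the FACS library 1 of 15 was past 2-fold lower, close to the 6.03% of all genes tested. That gene, named here because it was the one called, was ATP6V1A, the catalytic subunit, with 207 TPM in the male, 165 in the female and 52 in the FACS library. Between the female and male libraries 0 genes of these 5 partner lists were past 2-fold, against 1.38% of all genes tested.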

How the data were processed

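RNA from 4 pools of rat tissue was sequenced, 1 library per condition: male choroid plexus, female choroid plexus, FACS epithelial cells and proximal tubule, grouped by their titles. Per the study's methods and the submitters' processing notes, alignment to the rat genome Rnor_6.0, with Ensembl release 103 as annotation, used STAR 2.7.2a, and RSEM 1.3.3 then gave gene values. The authors deposited for each gene an expected count (an estimate that need not be whole), a TPM scaled to 1000000 per library, an effective length in bases, and an FPKM, which was not used. Strandedness is not given in the sources used here, so overlapping genes may share reads, and pooling hides any spread between rats.

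All exchanger genes named by the rule were described, with fixed lists of partner and marker genes, except that 2 are not reported here. These genes, lists and comparisons were chosen with earlier results of these data known. Names and IDs came from the study's lists, which name 2452 of 32883 IDs. Log2 ratios used TPM + 1 and genes at or above 0.5 TPM in either library, minus the median of all genes tested, and a gene was called past 2-fold. Intervals are 95% exact Poisson, or Clopper-Pearson for ratios of counts, and cover counting error only, with a floor of 3 counts. Total expected counts were 28324976 (male), 25376480 (female), 23873318 (FACS) and 25130213 (proximal tubule). Alternatives were other cut-offs, pseudocounts, fold limits and scalings, the removal of the 10 highest genes or of mitochondrially encoded genes, and the female library in place of the male. Python 3.11.15, numpy 2.4.6, pandas 2.3.3, scipy 1.17.1 and matplotlib 3.10.9 were used, and the steps were tested on simulated data.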

Additional observations from a re-analysis of the deposited data

How the results depend on the processing

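No paired analysis was possible because each condition has 1 library, and no replicate could be left out. At a cut-off of 1 TPM, 6 exchanger genes were detected in the male, 6 in the female and 5 in the FACS library, and at 5 TPM 3, 3 and 2, with 0 in the proximal tubule. For the FACS library against the male, 4 of 10 genes were past the limit with a pseudocount of 0.1 (SLC9A9 and SLC26A6 higher, SLC9A7 and SLC26A2 lower), against 25.6% of all genes, 1 of 3 among genes at or above 5 TPM (SLC26A2, with SLC9A9 outside the test), against 16.7%, and 5 of 10 at 1.5-fold, against 39.8%. For the female library against the male, 0 were past 2-fold under each alternative run. For the proximal tubule against the male, 1 of 3 was past it among genes at or above 5 TPM, against 64.3% of all genes, and 2 of 2 among genes with counts in both libraries, against 71.5%, an alternative chosen after seeing the data. With no subtraction of the median, 3 genes listed at 0 turned from higher to lower, SLC9A5 at -0.86, SLC26A8 at -1.05 and SLC26A10 at -0.90. With the 10 highest genes removed, the SLC26A sum rose to 61.3 TPM in the male, 53.2 in the female, 45.1 in the FACS and 2.34 in the proximal tubule library. Without mitochondrially encoded genes it was 43.1, 34.1 and 23.3 in the first 3 libraries, and with these genes kept 0.50 in the proximal tubule. Single genes' log2 ratios moved beyond counting error in 14 of 83 alternative values for the FACS library and 1 of 73 for the female. For the proximal tubule 78 of 93 were counted as moved, beside the 3 that turned. The 9 genes listed at 0 there had no counting interval, so almost any shift of theirs was counted. The cause of these shifts was not tested.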
